A study of Mus musculus with 16 samples.

Results

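The libraries described here came from cells sorted from wild-type mouse embryos at 2 stages, embryonic day (E) 8.5 and E9.5. They were chosen by their labels and make up 5 of the 16 libraries of the series, which compares wild-type embryos with embryos lacking the microRNA miR-302. At E8.5, 3 libraries (WT1_5s, WT2 and WT3) were made from cells sorted as Wnt1-Cre+, and the labels describe this population as crest before and after migration. At E9.5, 2 libraries (WT1 and WT2) were made from cells sorted as Sox10+, described as crest after migration. Crest is thus the labels' name, and the E8.5 libraries also held epithelial, surface ectoderm and anterior neural plate transcripts, given below. All embryos were C57BL/6 with the WT genotype, and no treatment was given. Not given in the sources used here were the reporter read in each sort and whether a library came from 1 embryo or several. P-values therefore measure the spread between these libraries, which may be technical. The stage, the gene used for sorting and the code number in the column names (163, 169 and 214 at E8.5 and 209 for both E9.5 libraries) changed together, so a change between the groups cannot be told apart from any of them.

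The neural crest forms at the border of the neural plate, an epithelium whose cells are joined by adherens and tight junctions. Crest cells lose these junctions, leave the epithelium and migrate, and then form sensory and autonomic neurons, glia, pigment cells and, in the head, the mesenchyme that makes bone, cartilage and connective tissue. A Cre driven by Wnt1 marks the dorsal neural tube and midbrain together with the crest that leaves them, and keeps marking cells after Wnt1 itself is off. Sox10, a transcription factor of migrating crest and its glia, is also made in the otic vesicle, the rudiment of the inner ear.

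The 5 libraries held between 7300598 and 14861728 recovered reads, and between 14871 and 15668 genes had at least 1 read. Levels are given as RPM, reads scaled to a common library size after joint TMM scaling of the 5 libraries, and 3 reads in a library correspond to 0.181 to 0.390 RPM. Values of a gene are listed in the order E8.5 WT1_5s, WT2, WT3 and then E9.5 WT1, WT2. The E8.5 library WT3 stood apart from the other E8.5 libraries. Its chi-square per gene against WT1_5s was 72.6 and against WT2 75.8, where WT1_5s and WT2 differed by 8.67 and the E9.5 libraries by 9.82. WT1_5s was the only library with reads of Y-linked genes (Eif2s3y at 46.6 RPM and at 0 in the other 4), and it had 0.260 RPM of Xist where the others had 16.1 to 29.7.

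Levels also moved with transcript length. In the plot of level against transcript length, genes were split into 5 groups of about 2400 by the length of their transcripts. The median change from E8.5 to E9.5 was -0.63 (log2) in the group of shortest transcripts, then -0.08, 0.22 and 0.41, and 0.51 in the group of longest transcripts. WT1_5s and WT2 carried high levels of short transcripts, with a median deviation of 0.51 and 0.49 in the shortest group, and E9.5 WT2 the lowest levels at -0.39. WT3 lay between them at -0.09. Across 11998 genes with a known length, the change and the length had a Spearman correlation of 0.46, a description across genes that are not independent replicates. The part of length in any single result was not tested, and for most lists the calls are also given with a length and GC trend removed from every library.

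**Figure D1:**
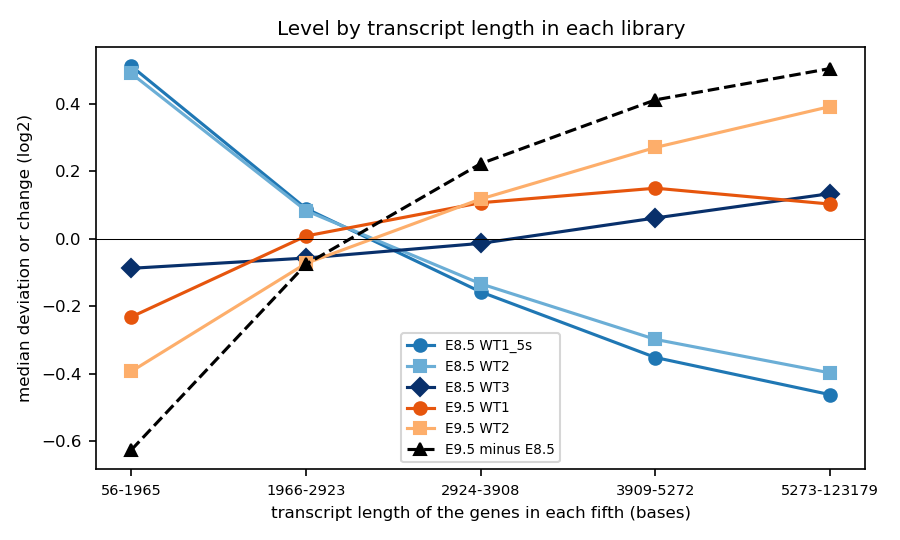
Median deviation of log2(RPM + 1) from the gene's mean over the stages (y axis, log2) for genes grouped by transcript length (x axis, bases), with 1 line per library and a dashed line for the change from E8.5 to E9.5. Short transcripts were high in E8.5 WT1_5s and WT2 (0.51 and 0.49) and low in E9.5 WT2 (-0.39), while E8.5 WT3 was nearly flat.

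Of 12082 genes with a mean of at least 1 RPM, 2331 (19.3%) passed limma's test at an adjusted p below 0.05. Of these, 1079 (8.93%) rose and 1252 (10.4%) fell from E8.5 to E9.5, and the median change of all genes was 0.08 (log2). Counts of calls by list below are to be read beside these shares. Among called genes with a stage mean of at least 20 RPM and no overlap between the stages, those with large increases included Col3a1, Barx1, S1pr3 and Lum, and those with the largest decreases were Krt18, the small RNA Rn4.5s, Epcam, Cldn6 and Cldn7. In bulk RNA of sorted cells, fewer cells of a type and less RNA per cell cannot be told apart. The number of calls depended on single libraries. It was 726 without E8.5 WT1_5s, 773 without E8.5 WT2 and 7400 without E8.5 WT3. With 1 library left at E9.5 it was 185 without WT1 and 110 without WT2. Every call tested in each of these 5 fits kept its direction. Each fit reuses libraries that chose these calls, so the kept direction is no independent check. Of the 169 tested genes named in the text 143 were called, and 37 of these stayed called without each library in turn, among them Wnt1, Krt18, Epcam, Otx2, Sox2, Pax6, Col3a1, Barx1, Alx4, Sox8, Neurod1 and Wnt5a. The calls of Akt1, Cdh19, Col4a6, Crmp1, E2f1, Erbb3, Gsc, Itgb1, Lin28b, Ncam1, Nkx2-5, Nr2f2, Pitx1, Pou5f1 and Rtn1 were lost under at least 1 other setting with all 5 libraries.

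The genes with large increases (14 shown) and the 15 with the largest decreases separated the stages without overlap in the plot of their levels by library. Col3a1, a fibrillar collagen of loose connective tissue on chromosome 1 (45311538 to 45349706, GRCm38), was at 0.651, 0.596 and 0.865 RPM at E8.5 and at 287 and 412 RPM at E9.5. Its change was 7.66 ± 0.27 (log2, SE; limma adjusted p = 0.000203). Barx1, a homeobox factor of arch mesenchyme, was at 0.520, 0.358 and 0.481 RPM and then at 90.3 and 98.7 RPM, a change of 6.04 ± 0.25. S1pr3, a receptor for the lipid sphingosine-1-phosphate, changed from 1.43, 1.91 and 0.0962 RPM to 87.0 and 99.4 RPM. All 3 genes were below 2 RPM in every E8.5 library. Krt18, a keratin of simple epithelia on chromosome 15, had 237, 189 and 148 RPM at E8.5 and 2.36 and 2.35 RPM at E9.5, a change of -5.81 ± 0.25 (limma adjusted p = 0.00028). Slc2a3, a glucose transporter, went from 501, 561 and 791 RPM to 15.7 and 19.7 RPM, and Rn4.5s from 774, 326 and 127 RPM to 3.61 and 8.87 RPM. The E8.5 values of Rn4.5s spread over a wide range, with WT3 the lowest.

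**Figure D2:**
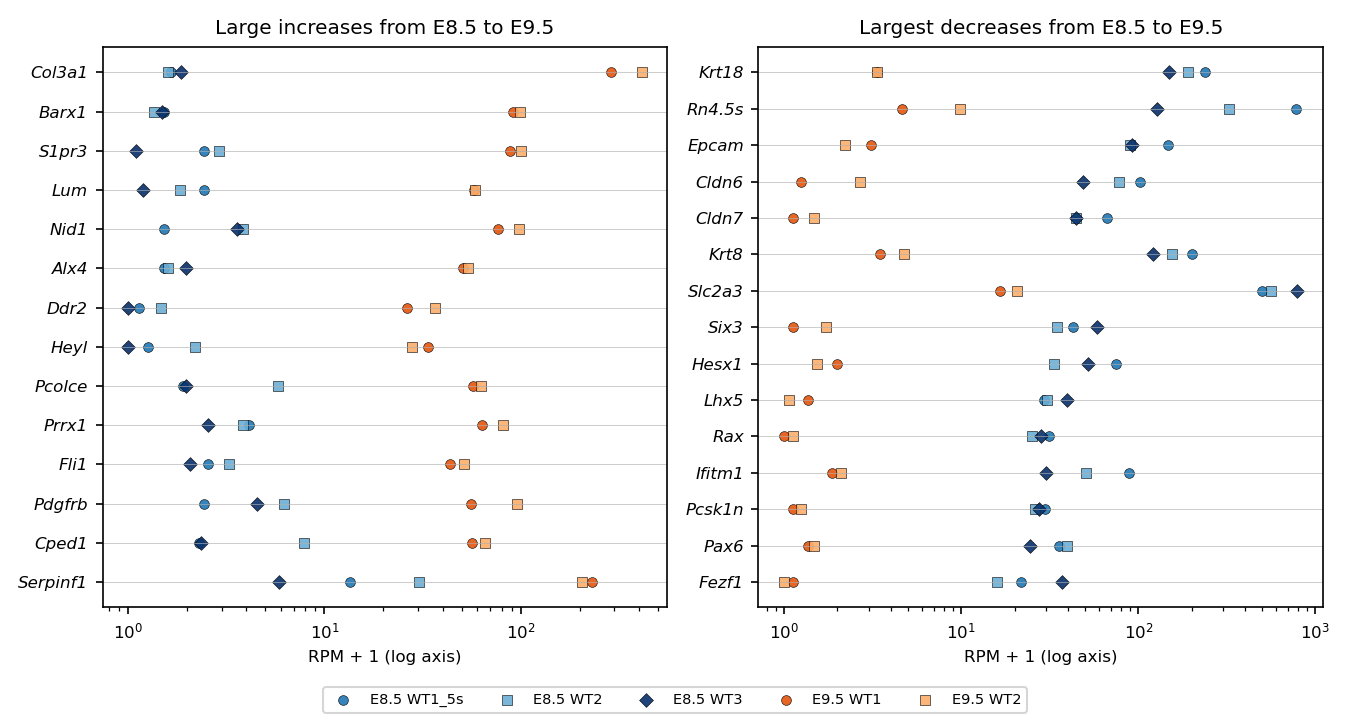
Level (RPM + 1, log axis) of 14 genes with large increases (left) and the 15 with the largest decreases (right) among called genes with a stage mean of at least 20 RPM, with 1 symbol per library. The E8.5 symbols (blue) and E9.5 symbols (orange) do not overlap for any of the 29 genes, a condition of their choice, and levels are comparable within a gene only.

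The genes that name the sorts behaved differently from each other. Wnt1, a signal of the dorsal midbrain and roof plate (chromosome 15, 98789857 to 98793837, GRCm38), was at 48.3, 52.7 and 53.2 RPM in the Wnt1-Cre+ libraries and at 2.98 and 2.84 RPM in the Sox10+ libraries. It fell by 3.74 ± 0.22 on the log2 scale (limma adjusted p = 0.000677). Sox10 itself was present at both stages, at 97.7, 94.4 and 65.1 RPM and at 88.6 and 76.5 RPM, and the ranges overlapped. Its change was -0.04 ± 0.24 (limma adjusted p = 0.922), so the E8.5 cells already held Sox10 transcripts and no difference from E9.5 was detected.

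Other factors that define the crest also did not pass the test, although the stages did not overlap for Foxd3 and Sox9 as they did for Sox10. Foxd3, an early crest factor, was at 22, 16.7 and 18.5 RPM and then at 13.7 and 9.84 RPM (change -0.66 ± 0.26, limma adjusted p = 0.11). Sox9, needed for crest survival and cartilage, had 107, 77.5 and 134 RPM and then 185 and 163 RPM (0.74 ± 0.26, limma adjusted p = 0.0833). Ets1, a factor of cranial crest, was at 28.8, 30.9 and 83.9 RPM and at 79.6 and 101 RPM, and the E8.5 library WT3 lay within the E9.5 range. Tfap2a and Pax3, which mark the neural plate border and crest, gave changes of -0.36 ± 0.29 and 0.20 ± 0.21. These 5 genes were chosen for description after their values were seen.

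Of 25 tested genes of crest specification and delamination, 9 rose, 1 fell and 15 did not pass (median 0.74, against 0.08 over all genes). The share called was 40% beside 19.3% of all genes. Sox8, a close relative of Sox10, was at 0.651, 1.79 and 1.15 RPM at E8.5 and at 31.8 and 28.2 RPM at E9.5 (3.85 ± 0.31, limma adjusted p = 0.00138). Snai2, a repressor of epithelial genes, went from 2.08, 3.10 and 1.63 RPM to 18.8 and 23.8 RPM (2.78 ± 0.31), and Zeb1, another such repressor, from 3.12, 6.08 and 4.90 RPM to 21.8 and 21.6 RPM (2.03 ± 0.31). The related Snai1 was at 12.4, 14.8 and 7.6 RPM and then at 14.4 and 14.5 RPM, and Zeb2 at 14.1, 17.4 and 27.4 RPM and then at 31.5 and 36.8 RPM, and neither passed. Snai1 and Zeb2 were chosen after their values were seen. The proteases Mmp2 (1.19 ± 0.22), Mmp14 (1.01 ± 0.21) and Adam10 (1.90 ± 0.41), which cut matrix and cell surface proteins, also rose, as did Twist2 (2.17 ± 0.36). Id4, an inhibitor of helix-loop-helix factors, fell by 1.47 ± 0.27. Without single E8.5 libraries the count of genes that rose was 4 (WT1_5s), 5 (WT2) and 14 (WT3), and 6 fell without WT3. Fewer rose when E9.5 WT1 or WT2 was left out.

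Epithelial genes fell as a group. Of 24 tested members of the epithelial list (keratins, claudins, adherens and tight junction proteins and their regulators), 20 fell, none rose and 4 did not pass, with a median change of -2.88. That share of 83.3% stands beside 10.4% of all genes called lower. Epcam, an epithelial adhesion protein, was at 146, 88.9 and 91.0 RPM at E8.5 and at 2.11 and 1.21 RPM at E9.5 (-5.35 ± 0.31, limma adjusted p = 0.000623). The tight junction genes Cldn6 (101, 77 and 47.6 RPM, then 0.249 and 1.69 RPM) and Cldn7 (65.2, 43.8 and 43.3 RPM, then 0.124 and 0.483 RPM) fell, with changes of -5.31 ± 0.44 and -5.30 ± 0.30. All 3 genes stayed below 3 RPM in both E9.5 libraries. Spint2, an inhibitor of epithelial surface proteases, kept 6.96 and 6.04 RPM at E9.5 after 126, 87.6 and 99.3 RPM. Ocln, a tight junction protein, fell by 2.77 ± 0.30.

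Regulators of the epithelial state fell too. Grhl2, a factor that keeps epithelial genes on, went from 6.25, 5.13 and 7.88 RPM to 0.373 and 0.181 RPM (-2.53 ± 0.29), and Esrp1, a splicing regulator of epithelia, from 9.5, 6.92 and 11.6 RPM to 0.497 and 0.483 RPM (-2.77 ± 0.30). Grhl2 and Esrp1 were chosen after their values were seen. The members that did not pass were Cldn5 (-1.45), Prom1 (-0.54), Tjp1 (0.13) and 1 other, and Prom1 and Tjp1 were named after their values were seen. Tjp1, a scaffold that links junctions to actin in many cell types, was at 16.4, 18.7 and 55.8 RPM and at 20.4 and 39.7 RPM. The count of epithelial genes called lower was 7 without E9.5 WT1 and also 7 without E9.5 WT2, and 19 to 21 without any single E8.5 library. With the length and GC trend removed, 21 members fell.

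Snai and Zeb proteins bind the E-box CAGGTG, which reads CACCTG on the other strand. Its letters were searched in the promoter windows of RefSeq (GRCm38.p6; 250 bases before to 50 after a start site), with the motif and gene set chosen after the changes were known. Of the 20 epithelial genes that fell, 16 had a window in the table, and 15 of the 16 (93.8%) held the letters on either strand in at least 1 window. Of the 19 tested members of the epithelial list with a window, fallen or not, 16 (84.2%) held the letters. The letters occurred for 22.6% of all 27025 genes in the table and for 19.9% of tested genes with a window. Their share was 28.7% of the genes called lower that have a window and 12.2% of those called higher. Per window, the share was 20.2% of 32851. A match is a description of the sequence and does not show that a factor binds there. The 250 bases before the start site of Epcam (chr17:87635729-87635978, plus strand), Cldn7 (chr11:69965171-69965420, plus strand, the second of 2 listed starts) and Spint2 (chr7:29281978-29282227, minus strand) are shown because these genes fell steeply and hold more than 1 match. Matches to either strand of the E-box are in capitals, and each sequence runs 5′ to 3′ toward the start site.

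Epcam: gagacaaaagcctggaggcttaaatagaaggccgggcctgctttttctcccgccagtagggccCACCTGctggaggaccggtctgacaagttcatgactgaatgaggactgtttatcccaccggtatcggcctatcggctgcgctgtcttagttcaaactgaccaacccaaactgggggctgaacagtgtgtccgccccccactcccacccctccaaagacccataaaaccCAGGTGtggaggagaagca
Cldn7: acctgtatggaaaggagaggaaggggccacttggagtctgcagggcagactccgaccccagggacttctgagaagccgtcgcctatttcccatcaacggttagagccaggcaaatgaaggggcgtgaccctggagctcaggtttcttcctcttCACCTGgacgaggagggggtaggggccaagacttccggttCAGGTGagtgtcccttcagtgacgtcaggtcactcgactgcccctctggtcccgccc
Spint2: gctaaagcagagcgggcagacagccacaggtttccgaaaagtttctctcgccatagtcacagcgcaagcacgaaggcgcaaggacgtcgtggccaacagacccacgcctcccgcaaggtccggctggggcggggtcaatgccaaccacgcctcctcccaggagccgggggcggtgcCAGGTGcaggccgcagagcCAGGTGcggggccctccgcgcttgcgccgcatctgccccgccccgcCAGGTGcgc

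In Epcam the matches began 186 and 18 bases before the start site, in Cldn7 96 and 56 bases before it, and in Spint2 73, 54 and 8 bases before it. The first listed Cldn7 window held no match.

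Cadherins, the adhesion proteins of adherens junctions, changed in both directions. Of 12 tested classical cadherins, 3 rose and 3 fell, a share called of 50% beside 19.3% of all genes. Cdh1 (E-cadherin), the cadherin of epithelia, was at 11.3, 11.3 and 33.8 RPM at E8.5 and at 0 and 1.27 RPM at E9.5 (-3.53 ± 0.57, limma adjusted p = 0.0111). Cdh3 (-1.34 ± 0.28) and Cdh4 (-2.48 ± 0.47) fell as well. Cdh11, a cadherin of mesenchyme and cranial crest, was at 25.8, 36.1 and 53.6 RPM and then at 217 and 284 RPM (2.72 ± 0.32). Cdh6, made in premigratory and early crest, was at 22.8, 32.1 and 36.0 RPM and then at 120 and 116 RPM (1.95 ± 0.24), and Cdh19, a cadherin of glial precursors, rose by 1.42 ± 0.37. Cdh2 (N-cadherin) was at 74.6, 102 and 174 RPM and then at 101 and 113 RPM, and its change of -0.04 ± 0.35 did not pass. No cadherin change was called with 1 library left at E9.5 except that of 1 gene without WT1.

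Matrix genes and their receptors rose. Of 38 tested collagens and matrix genes, 24 rose, 3 fell and 11 did not pass (median 1.45). That is a share called of 71.1% beside 19.3% of all genes. Lum, a proteoglycan that organises collagen fibrils, was at 1.43, 0.835 and 0.192 RPM and then at 56.8 and 57.2 RPM (5.05 ± 0.36, limma adjusted p = 0.000879). Nid1, which joins laminin to collagen IV in basement membranes, went from 0.520, 2.86 and 2.60 RPM to 76.0 and 97.5 RPM (4.98 ± 0.45). Col1a2 was already present at E8.5, at 23.3, 24.0 and 26.5 RPM, and reached 104 and 149 RPM, while its partner chain Col1a1 was at 0, 0 and 0.0962 RPM and reached only 4.35 and 5.13 RPM. Lama5, the laminin chain of epithelial basement membranes, fell by 2.30 ± 0.28, and Sparc (-2.04 ± 0.30) and Col4a6 (-1.21 ± 0.31) fell too. These 3 genes were named after their values were seen as the members that fell. The count of matrix genes that rose was 15 without E8.5 WT1_5s and also without E8.5 WT2, 30 without E8.5 WT3, 9 without E9.5 WT1 and 4 without E9.5 WT2.

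Among 9 tested integrins, the receptors that bind matrix, 6 rose and 1 fell, a share called of 77.8% beside 19.3% of all genes. Itga9, a receptor for tenascin and fibronectin segments, was at 8.20, 6.92 and 12.8 RPM and then at 67.4 and 88.3 RPM (2.96 ± 0.31, limma adjusted p = 0.00273). Itgb5 rose by 1.89 ± 0.20 from 30.3, 30.4 and 38.2 RPM to 129 and 120 RPM. Itga3, a laminin receptor of epithelia, fell from 10.7, 14.3 and 8.46 RPM to 0.622 and 1.09 RPM. Itgb1, the common beta chain, changed least among those that rose (0.71 ± 0.19). With length and GC removed, 4 integrins rose. Without E8.5 WT1_5s or WT2 the count was 2, without E8.5 WT3 8, and without E9.5 WT1 or WT2 it was 1 and 0.

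**Figure D3:**
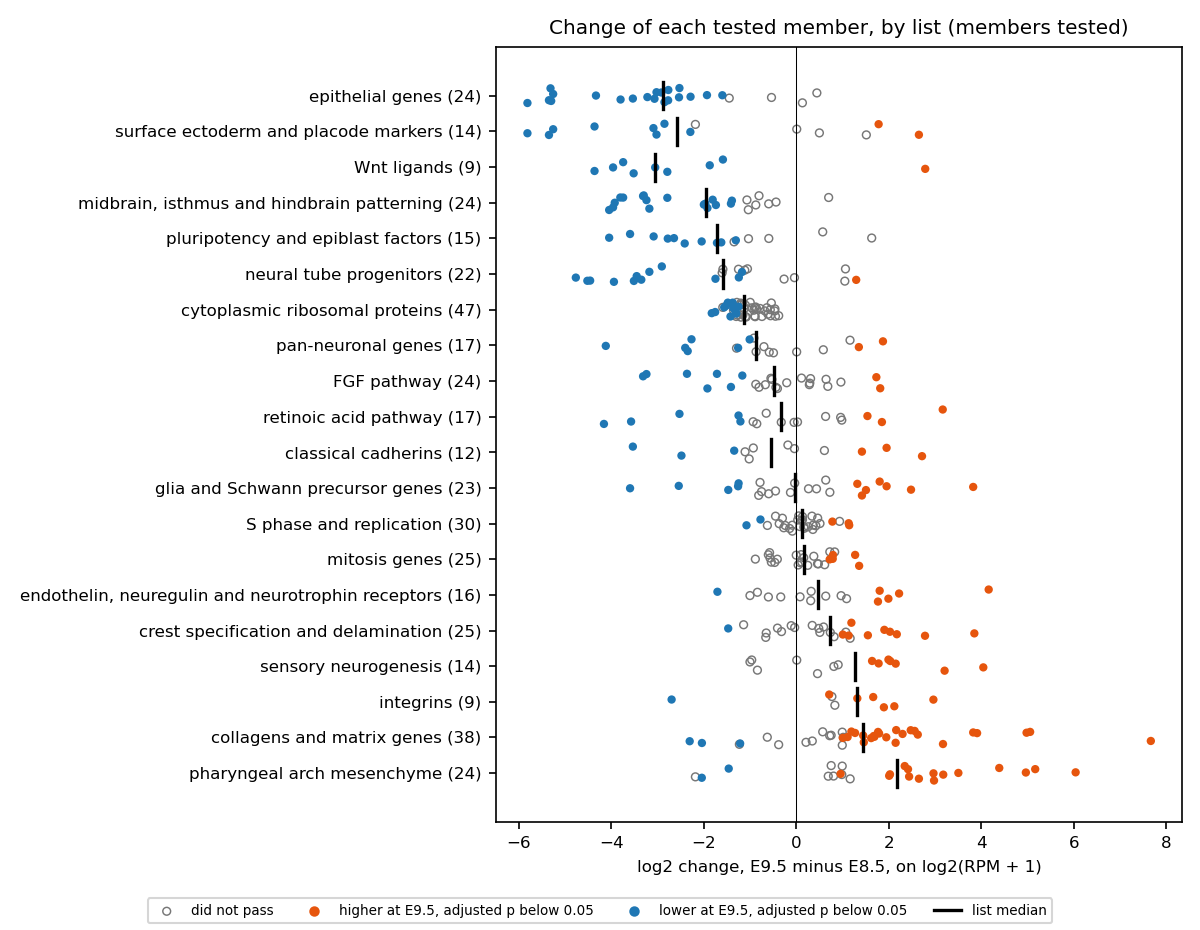
Change from E8.5 to E9.5 (x axis, log2) of each tested member of 20 gene lists, with filled points for members at a limma adjusted p below 0.05, open points for the others and a bar at each list's median. Epithelial genes, Wnt ligands and midbrain genes lie left of 0 and arch mesenchyme, matrix and sensory genes right of 0, with exceptions on both sides.

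The 15 largest decreases included factors of the anterior neural plate, and the 5 described here were thus chosen for having fallen. Six3 and Hesx1, homeobox factors of the forebrain field, were at 42.0, 33.6 and 57.8 RPM and at 74.2, 32.5 and 50.8 RPM at E8.5. At E9.5 they were at 0.124 and 0.724 RPM and at 0.995 and 0.543 RPM, changes of -5.0 ± 0.34 and -4.85 ± 0.38. Rax, needed for the eye field, was at 30.3, 24.2 and 27.2 RPM and then at 0 and 0.121 RPM. Fezf1 (-4.46 ± 0.39), a forebrain and olfactory factor, and Pax6 (-4.52 ± 0.30), a factor of eye and forebrain, fell likewise. Six3, Hesx1, Rax and Pax6 were all below 1 RPM in both E9.5 libraries.

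Of 22 tested neural tube progenitor genes, 12 fell, 1 rose and 9 did not pass (median -1.59). That is a share called of 59.1% beside 19.3% of all genes. The SoxB1 factors that hold neural progenitors fell together. Sox2 was at 75.2, 98.5 and 69.5 RPM and then at 10.9 and 8.81 RPM (-2.91 ± 0.24, limma adjusted p = 0.00138). The changes of Sox1 and Sox3 were -3.35 ± 0.31 and -3.94 ± 0.34. Hes5, a Notch target of progenitors, fell by 3.51 ± 0.40. The member that rose was the adhesion gene Ncam1 (1.30 ± 0.31), named after its value was seen. After removal of length and GC trends 16 fell and none rose. Removing single libraries left 7 to 18 members called lower, the fewest without E9.5 WT2 and the most without E8.5 WT3.

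Genes of the midbrain and isthmus fell as well. Of 24 tested midbrain, isthmus and hindbrain genes, 17 fell and none rose (median -1.94), a share of 70.8% beside 19.3% of all genes. Otx2, the factor that sets the forebrain and midbrain, was at 70.8, 61.6 and 54.3 RPM and then at 3.85 and 1.99 RPM (-4.04 ± 0.29, limma adjusted p = 0.000879). Fgf8, the organiser signal of the isthmus, was at 34.2, 64.1 and 38.7 RPM and then at 5.35 and 2.23 RPM (-3.31 ± 0.40), and Fgf15 fell by 3.24 ± 0.36. En1, a factor of midbrain and anterior hindbrain named after its values were seen, was at 57.2, 62.2 and 12.9 RPM, lowest in WT3, and then at 2.49 and 1.03 RPM (-3.80 ± 0.67). Its relative En2 was at 15.6, 41.3 and 34.8 RPM and then at 19.4 and 8.99 RPM, and the groups overlapped. En2 too was named after its values were seen. The count of members that fell was 13, 11 and 19 without E8.5 WT1_5s, WT2 and WT3, and 9 and 4 without E9.5 WT1 and WT2. It was 18 with length and GC removed.

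**Figure D4:**
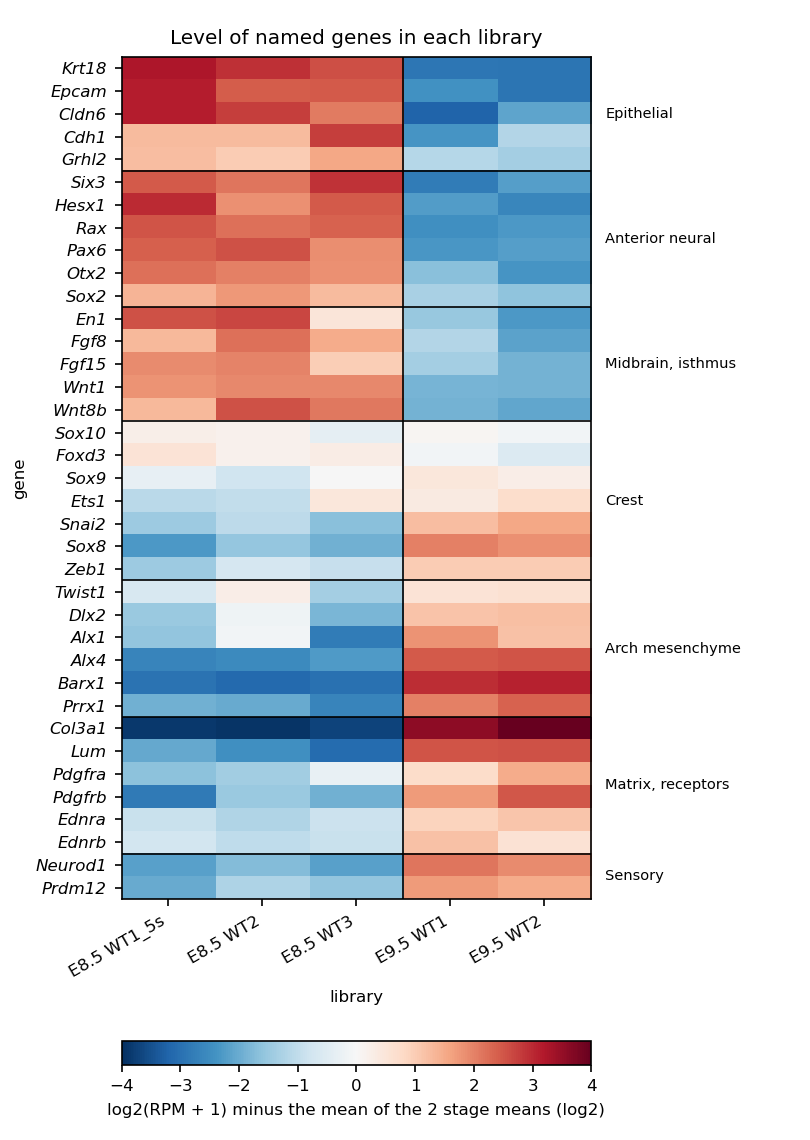
Level of 37 named genes in each library, as log2(RPM + 1) minus the mean of the stage means (colour, log2, ending at -4 and 4), with genes in rows by group and libraries in columns. Epithelial, anterior neural and midbrain genes were high in all 3 E8.5 libraries, Sox10 and Foxd3 were not called, and arch mesenchyme, matrix, receptor and sensory genes were high in both E9.5 libraries.

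Of 19 Wnt ligands only 9 reached the level for testing, and all 9 were called, 8 lower and 1 higher (median -3.05). That is a share called of 100% beside 19.3% of all genes. Wnt6, a ligand of the surface ectoderm, was at 16.4, 35.1 and 17.0 RPM and then at 0.124 and 0.0604 RPM (-4.36 ± 0.38, limma adjusted p = 0.00159). Wnt8b (-3.96 ± 0.40), Wnt3a (-2.79 ± 0.39) and Wnt7b (-3.52 ± 0.51), ligands of the forebrain and dorsal neural tube, fell as well. Wnt5a, a ligand of outgrowing mesenchyme, was the member that rose, from 8.46, 8.82 and 11.0 RPM to 61.7 and 80.6 RPM (2.79 ± 0.25). Its relative Wnt5b fell by 1.87 ± 0.33. Of 44 tested receptors, inhibitors and effectors of the pathway, 5 rose, 8 fell and 31 did not pass. Their share called was 29.5% beside 19.3% of all genes. Among those that rose were Ror1 (1.55 ± 0.22), a receptor of Wnt5a, Nkd2 (3.13 ± 0.41) and Dkk3 (2.61 ± 0.32). Dkk1, an inhibitor of the canonical pathway, fell from 44.0, 27.9 and 31.8 RPM to 4.10 and 5.92 RPM, and Sp5, a target of the pathway, fell by 1.81 ± 0.31. Ctnnb1, which encodes beta-catenin, changed by 0.03 and was not called. Without E9.5 WT1 or WT2, 3 and 2 ligands were called lower, and Wnt5a stayed called higher in both. The ligand counts were unaltered with length and GC removed, where 5 receptors, inhibitors and effectors rose and 11 fell.

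Other signalling genes of the early head changed too. Of 24 tested FGF pathway genes, 7 fell and 2 rose, a share called of 37.5% beside 19.3% of all genes. The ligands Fgf3 (-2.36 ± 0.28), Fgf5 (-1.71 ± 0.32) and Fgf17 (-1.92 ± 0.42) fell, whereas Dusp6, a phosphatase induced by FGF signalling, rose from 58.2, 60.7 and 43.2 RPM to 206 and 176 RPM (1.81 ± 0.22, limma adjusted p = 0.00423), as did Spry4 (1.73 ± 0.39). Of 23 tested BMP pathway genes, 7 fell and 3 rose (43.5% called). Bmp2 was at 8.85, 7.99 and 18.4 RPM and then at 0.497 and 0.483 RPM, and its antagonists Nog (-2.13 ± 0.42) and Fst (-3.08 ± 0.40) fell beside it, while the receptor Bmpr1b rose by 2.46 ± 0.36. In the Notch list 3 of 23 members rose and 4 fell (30.4% called). Heyl, a Notch target of vessel wall and mesenchyme, went from 0.260, 1.19 and 0 RPM to 32.7 and 27.0 RPM (4.45 ± 0.39), and Lfng, which modifies Notch, fell by 2.53 ± 0.27. With only E9.5 WT2 left, the FGF, BMP and Notch lists had 2, 1 and 2 members lower and 0, 0 and 1 higher, and with only E9.5 WT1 left 0, 0 and 0 lower and 0, 0 and 1 higher. After removal of length and GC trends 2 FGF genes rose and 7 fell, 1 BMP gene rose and 8 fell, and 2 Notch genes rose and 4 fell.

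Of 17 tested retinoic acid genes, 3 rose, 5 fell and 9 did not pass, a share called of 47.1% beside 19.3% of all genes. With length and GC removed 5 rose and 4 fell. The synthesising enzymes Aldh1a2 (14.1, 9.06 and 36.5 RPM, then 0 and 0 RPM) and Aldh1a3 (11.6, 17.3 and 8.37 RPM, then 0 and 0.181 RPM) fell. Aldh1a2 was at least 175-fold lower at E9.5, a bound that sets 3 reads against the absence of reads over the E9.5 group. The degrading enzyme Cyp26a1 fell by 2.53 ± 0.47. The receptors Rarb (2.60, 2.15 and 1.35 RPM, then 29.3 and 22.6 RPM) and Rarg (1.85 ± 0.30) rose, and Rarb is itself a known target of retinoic acid. Without E9.5 WT1 or WT2, 1 member rose and 1 fell in each case, and 3 fell without E8.5 WT1_5s and without E8.5 WT2.

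Of 15 tested pluripotency and epiblast genes, 10 fell and none rose (median -1.71), a share of 66.7% beside 19.3% of all genes. Pou3f1, a factor of epiblast and anterior neural plate, was at 105, 127 and 92.8 RPM and then at 11.7 and 5.37 RPM (-3.59 ± 0.33, limma adjusted p = 0.00181). Pou5f1 (Oct4) was low at E8.5, at 2.73, 1.19 and 2.88 RPM, and was at 0 and 0.0604 RPM at E9.5 (-1.62 ± 0.33). Nanog was at 17.7, 15.4 and 17.8 RPM and at 11.2 and 10.6 RPM and did not pass (limma adjusted p = 0.106). Pou5f1 and Nanog were named after their values were seen. The list also holds Otx2 and Cd24a (-1.31 ± 0.22), which neural plate cells make too. Without E9.5 WT1 or WT2, 3 and 2 members were called lower, and with length and GC removed 10 fell and 1 rose.

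Genes of the pharyngeal arch mesenchyme rose. Of 24 tested members, 15 rose, 2 fell and 7 did not pass (median 2.18), against 8.93% of all genes called higher. Alx homeobox factors of the midface were among those that rose. Alx4 was at 0.520, 0.596 and 0.962 RPM and then at 50.1 and 52.8 RPM (4.96 ± 0.27, limma adjusted p = 0.000623). Alx1, named after its values were seen, was at 8.20, 24.6 and 2.98 RPM and then at 94.2 and 61.3 RPM (2.98 ± 0.70). In Alx1 the E8.5 library WT2 was the highest of its stage, as it was for Dlx2 (17.0, 44.0 and 13.2 RPM).

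Prrx1, a factor of limb and face mesenchyme, rose from 3.12, 2.86 and 1.54 RPM to 62.7 and 80 RPM (4.39 ± 0.31). Its paralog Prrx2 was already at 96.4, 128 and 56.8 RPM at E8.5 and at 168 and 186 RPM at E9.5, and did not pass (limma adjusted p = 0.0757). With length and GC removed Prrx2 did pass, with a change of 1.78. Dlx1 and Dlx2, factors of the proximal arches, rose by 3.5 ± 0.42 and 2.34 ± 0.47, and Dlx2 reached 112 and 116 RPM. Six2 (3.18 ± 0.30), Foxc2 (2.97 ± 0.31), Foxf1 (2.42 ± 0.27) and Lhx8 (2.01 ± 0.26), factors of different parts of the face and arch mesenchyme, rose as well. The members that fell were Pitx1 (-2.04 ± 0.54) and Gsc (-1.46 ± 0.41), both named after their values were seen. Once length and GC trends were removed, 19 members rose and none fell, since neither Pitx1 (-1.60) nor Gsc (-0.42) passed. Twist1, a factor of cranial mesenchyme, was at 31.9, 60.0 and 18.8 RPM and then at 74.1 and 77 RPM, and it did not pass (limma adjusted p = 0.0953) although the groups did not overlap. Twist1 was named after its values were seen, and it passed with length and GC removed (1.70). The count that rose was 12, 15 and 19 without E8.5 WT1_5s, WT2 and WT3, and 6 and 5 without E9.5 WT1 and WT2.

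Of 16 tested receptors and ligands of the endothelin, neuregulin and neurotrophin list, 5 rose, 1 fell and 10 did not pass. Their share called was 37.5% beside 19.3% of all genes. Ednra, which patterns the lower jaw, was at 17.7, 14.1 and 18.2 RPM and then at 63.8 and 74.1 RPM (1.99 ± 0.22, limma adjusted p = 0.00346). Ednrb, needed by enteric crest and melanoblasts, was at 17.8, 14.4 and 16 RPM and then at 69.9 and 46.2 RPM (1.77 ± 0.26). Edn1, their ligand in arch epithelium, fell from 5.33, 6.08 and 6.25 RPM to 0 and 0.302 RPM. Pdgfrb (1.43, 5.25 and 3.56 RPM, then 54.9 and 95.1 RPM) and Pdgfra (7.55, 9.06 and 20.4 RPM, then 43.4 and 72.6 RPM), receptors of mesenchyme, rose by 4.16 ± 0.45 and 2.22 ± 0.44. Erbb3, the neuregulin receptor of glial precursors, rose by 1.80 ± 0.51 and its ligand Nrg1 fell by 1.70 ± 0.31. The list's calls were 3 higher and 1 lower without E8.5 WT1_5s and also without E8.5 WT2. Without E8.5 WT3 they were 7 higher and 4 lower. Fewer were called when E9.5 WT1 or WT2 was left out. The list had 5 higher and 3 lower with length and GC removed (median 0.11).

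Of 43 tested guidance genes 7 rose and 5 fell, a share called of 27.9% beside 19.3% of all genes, and with length and GC removed 7 rose and 8 fell. Epha3, an Eph receptor, was at 0, 0.119 and 0 RPM and then at 9.32 and 15.5 RPM (3.65 ± 0.30, limma adjusted p = 0.00143). Ephb1, another Eph receptor, went the other way, from 16.5, 22.9 and 41.0 RPM to 1.37 and 1.33 RPM (-3.47 ± 0.39). Nrp1, a receptor for semaphorins and VEGF, rose by 1.29 ± 0.27, Plxna4 by 1.64 ± 0.29, and Epha4 fell by 1.47 ± 0.27. Without E9.5 WT1 or WT2, 1 member was called higher in each case and none lower, and without E8.5 WT3 19 were higher.

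Of 14 tested sensory neurogenesis genes, 7 rose, none fell and 7 did not pass (median 1.27), a share of 50% beside 19.3% of all genes. With length and GC removed 7 rose and 2 fell. Neurod1, a factor that drives neuronal differentiation, was at 0, 0.358 and 0 RPM at E8.5 and at 19 and 15.6 RPM at E9.5 (4.04 ± 0.29, limma adjusted p = 0.000879). Prdm12, a regulator of pain-sensing neurons, was at 1.82, 3.82 and 2.79 RPM and then at 35.9 and 30.9 RPM (3.21 ± 0.31). Eya1 and Six4, factors of placodes and sensory ganglia, rose by 2.03 ± 0.29 and 1.99 ± 0.37. Without E8.5 WT1_5s or WT2, 6 members rose and none fell, and without E8.5 WT3 7 rose and 3 fell. Fewer were called when E9.5 WT1 or WT2 was left out.

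Pan-neuronal genes changed in both directions. Of 17 tested pan-neuronal genes, 2 rose and 6 fell, a share called of 47.1% beside 19.3% of all genes. Stmn2, a tubulin-binding protein of neurons, was at 27.1, 25.2 and 22.4 RPM and then at 0.622 and 0.362 RPM (-4.12 ± 0.26, limma adjusted p = 0.000842). Nhlh2, a neuronal transcription factor, had no read at E8.5 and was at 3.23 and 2.17 RPM at E9.5, at least 22.2-fold higher. Crmp1 and Rtn1, neuronal cytoskeletal and membrane genes, fell by 1.01 ± 0.28 and 1.26 ± 0.26. Without E8.5 WT1_5s the count of members that fell was 2, without E8.5 WT2 2, without E8.5 WT3 10, without E9.5 WT1 2 and without E9.5 WT2 1. After removal of length and GC trends 2 rose and 8 fell.

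Of 23 tested glial genes 7 rose and 5 fell, a share called of 52.2% beside 19.3% of all genes. The counts were the same with length and GC removed. Tgfbi and Postn, matrix genes that the glia list holds, rose by 2.48 ± 0.25 and 3.82 ± 0.40, and Pou3f1, which is also a Schwann cell factor, fell. Fabp7 (-0.13 ± 0.56), a fatty acid binding protein of glial precursors, was not called. Fabp7 was named after its value was seen. Of 4 tested melanoblast genes, the ligand gene Kitl rose from 4.94, 6.32 and 5.38 RPM to 31.3 and 34.4 RPM (2.37 ± 0.25), and Pmel and Rab38 fell. That is a share called of 75% beside 19.3% of all genes, over only 4 genes. Kit, the receptor, changed by 0.08 and was not called. Without E9.5 WT1 the glial list had 2 members higher and 1 lower, and without E9.5 WT2 none and 1, while no melanoblast gene was called in either.

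Hox genes, which set position along the body axis, were nearly absent at both stages. Of 30 members, 20 had no read in any of the 5 libraries and only Hoxa2, Hoxb1 and Hoxb2 were tested, with changes of 0.76, -0.97 and -0.20. None was called (limma adjusted p = 0.482, 0.164 and 0.832), and the summed level of all Hox genes was 11.1 to 25.6 RPM at E8.5 and 5.01 to 29.2 RPM at E9.5. The cofactor Pknox2 rose by 1.13 ± 0.23, as 1 of 9 tested cofactors, a share called of 11.1% beside 19.3% of all genes.

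Lin28 and Trim71 encode RNA-binding regulators of developmental timing, and their list also holds the microRNA machinery. Of 21 tested members, 2 rose and none fell, a share called of 9.52%, below the 19.3% of all genes. They were Lin28b (34.2, 28.4 and 74.6 RPM, then 101 and 154 RPM) and Igf2bp1 (151, 167 and 220 RPM, then 333 and 379 RPM), with changes of 1.56 ± 0.42 and 1.0 ± 0.23. With length and GC removed the list's median went from 0.56 to 0.12, and 2 rose and 1 fell. None was called without E8.5 WT1_5s or without E8.5 WT2, and 12 rose and 3 fell without E8.5 WT3. Lin28a was at 58.4, 78.7 and 118 RPM and at 64.1 and 90.1 RPM, and Trim71 at 52.4, 57.2 and 133 RPM and at 78.6 and 77.8 RPM. The ranges of Lin28a and Trim71 overlapped, and both were named after their values were seen. Of 23 tested reported targets of the miR-302 family, 3 rose (Suv39h1, Nr2f2 and Akt1) and 2 fell (Fgf15 and E2f1), a share of 21.7% beside 19.3% of all genes.

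Several lists of general cell functions had shares of calls near or below the 19.3% of all genes. Of 30 tested S phase genes 3 rose and 2 fell, with Rrm1, a subunit of ribonucleotide reductase, up by 1.13 ± 0.18 and the licensing gene Mcm10 by 1.14 ± 0.20. Of 25 mitosis genes 5 rose, among them the spindle checkpoint kinase Bub1b (1.27 ± 0.25), and none fell, but with length and GC removed 3 rose and 4 fell, and without E8.5 WT3 11 rose and 7 fell. Of 31 Polycomb and DNA methylation genes 3 rose, namely Tet2 (2.31 ± 0.27), Dnmt3a (1.32 ± 0.18) and Bmi1 (1.24 ± 0.24), and with length and GC removed 4 rose and 3 fell. Heat shock genes (1 of 24), cholesterol and fatty acid synthesis (1 of 28) and BAF complex subunits (2 of 23) had few calls. Imprinted and immediate early genes had shares of 31.8% and 26.3%. Of 22 tested imprinted genes 5 rose and 2 fell, and Peg3 differed between its own E9.5 libraries, at 92.4 and 258 RPM after 11.1, 13.0 and 49.2 RPM. The immediate early gene Egr1 likewise differed between the E9.5 libraries, at 23.2 and 7.12 RPM after 1.04, 1.43 and 1.25 RPM (2.65 ± 0.46). None of the S phase, mitosis or imprinted genes was called without either E9.5 library.

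Ribosomal protein and oxidative phosphorylation genes are short, with a median transcript of 1120 and 1428 bases, and moved with the length trend. All 47 ribosomal protein genes had a negative change (median -1.13) and 11 fell, a share called of 23.4% beside 19.3% of all genes. Rplp2, a stalk protein of the large subunit, was at 2089, 2085 and 1136 RPM and then at 484 and 475 RPM. With length and GC removed the median of the list was -0.39 with 14 lower, and with WT3 as the lone E8.5 library it was -0.42. None of the 47 was called without E8.5 WT1_5s, without E8.5 WT2 or without either E9.5 library, and all 47 were called lower without E8.5 WT3. Of 43 oxidative phosphorylation genes 12 fell and 1 rose (30.2% called, median -0.93). After removal of these trends 4 rose and 7 fell (median -0.11). None was called without E8.5 WT1_5s, without E8.5 WT2 or without either E9.5 library, and 36 fell and 2 rose without E8.5 WT3.

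Markers of other cell types changed in both directions. Of 19 surface ectoderm and placode markers, 14 were tested, 8 fell and 2 rose (Dlx3 among them), a share called of 71.4% beside 19.3% of all genes. The list's summed level was 494 to 707 RPM at E8.5 and 128 to 129 RPM at E9.5. The keratins and Epcam are on this list and on the epithelial list, so the fall of the epithelial genes and of surface ectoderm markers went together, and the part of such cells was not tested. Without E9.5 WT1 or WT2, 5 of these markers were called lower in each case. Of 20 endoderm markers 10 were tested and 5 fell, a share called of 50% beside 19.3% of all genes. Among those that fell was Foxa1 (10.1, 9.30 and 7.98 RPM, then 0.249 and 0.241 RPM). The endoderm list's summed level was 56.6 to 124 RPM and then 10.5 to 16.5 RPM. The endoderm count was 3 without E8.5 WT1_5s or WT2, 8 without WT3 and 1 without either E9.5 library. Of 18 endothelial markers 9 were tested and 2 fell (Ramp2 and Egfl7), a share called of 22.2%, near the 19.3% of all genes. The list's median change was -1.15, and -0.55 with length and GC removed. Its summed levels were 87.2 to 140 RPM and then 47.4 to 53.6 RPM. Cdh5, a defining gene of endothelium, was at most 0.390 RPM. Of 16 myeloid markers 3 were tested and none was called, 5 had no read in any library, and the sums were 8.08 to 12.3 RPM and 6.88 to 9.70 RPM.

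Blood and ear markers were also checked. Of 19 erythroid markers 2 were tested, 6 had no read in any library, and the embryonic globin Hbb-y was at 0 in every library except E9.5 WT2 (0.543 RPM). Hbb-y was chosen after its values were seen. Car2, which erythroid and other cells make, fell from 215, 159 and 109 RPM to 22.4 and 17.9 RPM and carried most of that list's sum. Of 13 tested otic vesicle markers, 3 rose, Eya1 among them, and 6 fell, a share called of 69.2% beside 19.3% of all genes. With length and GC removed 4 rose and 5 fell. The otic list shares members with the midbrain list. Oc90, a defining gene of the otic vesicle, was at 0, 0.596 and 0 RPM at E8.5 and at 0.249 and 0 RPM at E9.5, and the otic factor Pax8 fell by 1.96 ± 0.37. The summed level of the otic list was 131 to 172 RPM at E8.5 and 150 to 158 RPM at E9.5. Of 25 mesoderm, somite and heart markers 8 were tested, Foxc2 and Meox2 rose and Nkx2-5 fell, a share called of 37.5% beside 19.3% of all genes.

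The same stages were also sampled in embryos lacking miR-302, and 4 libraries of E8.5 and 2 of E9.5 were used, which share no library with the wild-type comparison. A further E8.5 knockout library was not analysed here. There 5157 of 12266 tested genes (42%) were called between the stages, and 5643 of 12251 (46.1%) had a step that differed between the genotypes by limma's interaction term. Of the knockout calls 42.4% were higher at E9.5, a share that was 17.0% with library size alone as the scaling and 54.0% with length and GC trends removed. Of the differing steps 40.1% were more positive in the knockout, and this share was 19.1% and 53.3% under those scalings and 51.8% by DESeq2. In the knockout libraries the relation with transcript length ran the other way, with Spearman correlations of 0.24 to 0.58 between level and length at E8.5 and -0.31 and -0.50 at E9.5. The wild-type values were -0.55, -0.53 and 0.18 at E8.5 and 0.31 and 0.53 at E9.5. The E8.5 libraries WT2 and KO4 share code number 169, and there the correlations were -0.53 and 0.24. In the step between stages, genotype and length trend cannot be told apart. Of all genes tested in both, 34.2% had the same direction in the knockout, and of the wild-type calls 41.0% (28.6% of those higher and 51.4% of those lower). With length and GC trends removed these shares were 45.8% of all genes and 53.3% of the wild-type calls.

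The steps of single genes in the knockout are set beside the wild-type values in the plot of both steps. The knockout steps of Krt18, Epcam and Cldn6 were -2.94, -2.46 and -5.80, those of Otx2 and Pax6 -2.69 and -2.76, and that of Wnt1 -5.49. Barx1 changed by 3.39 in the knockout, while Col3a1 changed by 2.59 against 7.66 in the wild type. Cdh11 (-0.21), Ednrb (-2.55), Itgb1 (-1.81) and Wnt5a (-1.15) gave values at or below 0 in the knockout where they rose in the wild type. Sox10 changed by 0.11 in the knockout and its step did not differ between genotypes (interaction 0.12, limma adjusted p = 0.843). The list medians in the knockout were -2.33 for epithelial genes, -2.01 for midbrain genes, 1.15 for arch mesenchyme, -0.83 for matrix genes and 1.68 for ribosomal proteins.

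**Figure D5:**
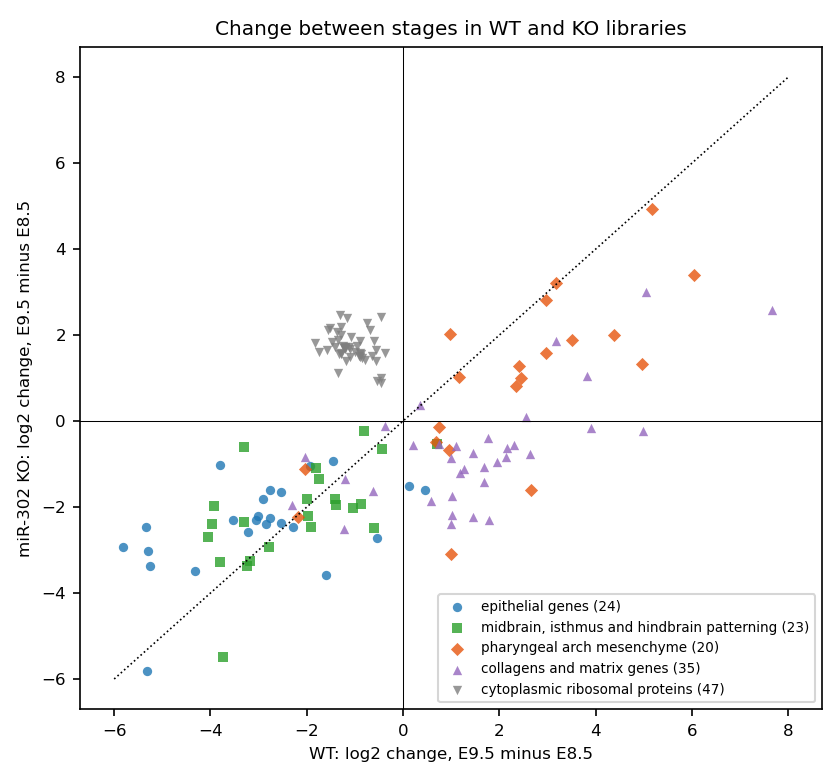
Change from E8.5 to E9.5 in wild-type libraries (x axis, log2) against the same change in miR-302 knockout libraries (y axis, log2) for members of 5 lists tested in both, with a dotted line of equal change. Epithelial and midbrain genes lie mostly in the lower left and arch mesenchyme genes in the upper right, while ribosomal protein genes lie above 0 in the knockout and below 0 in the wild type.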

How the data were processed

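RNA of sorted cells was made into libraries with SMART-Seq v4 and Nextera XT per the labels' protocols. FastQC 0.11.5, STAR 2.7.0f and the mm10 build are named in the submitters' processing notes. Not given in the sources used here were the counting tool, annotation and normalisation. The deposited tables hold a normalised signal per gene and library, made by the authors, in which every value is a whole multiple of the column's smallest positive value. Dividing by it gave whole reads for 100% of values (within 0.01), so depth is known and 3 reads mark the floor. Floors cover counting error only, whereas each ± value is limma's standard error, which measures the spread between libraries.

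The 5 libraries were scaled together by TMM (edgeR 4.0.16). Genes with a mean of at least 1 RPM were tested on log2(RPM + 1) with limma 3.58.1 (trended prior, R 4.3.3) and called at a Benjamini-Hochberg adjusted p of 0.05. Fold changes on this scale understate the change of low genes. The knockout libraries and the interaction of stage and genotype were fitted in the same way. Scripts ran in Python 3.11.15 (numpy 2.4.6, pandas 2.3.3, scipy 1.17.1, matplotlib 3.10.9) and were tested on simulated data. DESeq2 1.42.0, edgeR's quasi-likelihood test, other pseudocounts, filters and scalings, a replicate block and leaving out libraries were tried as alternatives. Of 24421 symbols, 23334 matched a current and 668 an older symbol of GENCODE M21 (GRCm38, the same build as mm10), 53 matched several genes and 366 none. Transcript length and coordinates come from that annotation, and promoters from RefSeq.

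Genes were named by a rule: Wnt1 and Sox10, the 15 largest changes in each direction among calls without overlap and a stage mean of at least 20 RPM, the 8 members of each list with the smallest p or in its 3 highest means, and all Hox, otic and cadherin members. Other named genes are said to be chosen after their values were seen. The groups of libraries, the gene lists and the rule were chosen with earlier results of these data known. Some items of these lists are not reported here.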

Additional observations from a re-analysis of the deposited data

Results flagged for a closer look

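The step from E8.5 to E9.5 differed between wild-type and knockout libraries for 5643 genes by limma's interaction term at an adjusted p of 0.05. Among the genes set side by side above, the knockout step minus the wild-type step was -5.02 (log2) for Col3a1, -4.35 for Ednrb, -3.97 for Wnt5a, -2.96 for Cdh11, -2.55 for Itgb1 and -1.86 for Wnt1. It was positive for Epcam (2.82), Krt18 (2.81) and Otx2 (1.30), whose decrease was smaller in the knockout. The libraries of the genotypes also differed in the direction of their length trend, which in the step between stages cannot be told apart from the genotype. With length and GC trends removed, 3503 genes differed.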

How the results depend on the processing

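Counts of wild-type calls are given as higher and lower at E9.5, against 1079 and 1252. They were 641 and 635 with a mean of at least 10 RPM, and 2078 and 2070 at an adjusted p of 0.1. DESeq2 called 1358 and 2123, and edgeR's quasi-likelihood test 1020 and 1337. With E8.5 WT1_5s and WT2 left out together, chosen after seeing the data, they were 2169 and 1982, and all 2254 of the earlier calls tested there kept their sign. Leaving out single libraries gave 43 to 3891 higher and 67 to 3509 lower, and where 1 library was left at E9.5 it was assumed to vary like the E8.5 libraries. The other alternatives (pseudocounts, no filter, scalings, prior) kept both counts within 1.5 times. With library size alone as the scaling the median of all genes moved from 0.08 to 0.31, and changes are to be read against that shift.

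With the replicate number as a block the counts were 4096 and 3548. The correlation of deviations of same-numbered libraries was 0.32 for number 1 and -0.31 for number 2. With only 2 libraries at E9.5, these values cannot decide whether the numbers pair the libraries. Cdh2 changed by 0.29 under the block and was called. With WT1_5s and WT2 left out together, the calls of Fabp7 (0.93), Kit (-0.97), Tjp1 (-0.94) and Trim71 (-0.75) had the sign opposite to the values above, which were not called. The cause was not tested.

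In the knockout, library size alone gave 1048 higher and 5129 lower against 2185 and 2972, removal of length and GC trends left 1654 lower, and leaving out single libraries gave 1085 to 2343 higher and 1763 to 3328 lower. The count of differing steps was 3503 with those trends removed and 3231 to 6440 when single libraries were left out.

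Depth was 7300598 to 14861728 reads, so genes below about 1 RPM rest on few reads. The stage comparison rests on 2 libraries at E9.5 that share a code number.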
